A study of Mus musculus with 12 samples.

Results

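The 10 genes described here, Pecam1, Cdh5, Kdr, Flt1, Tek, Tie1, Emcn, Vwf, Cldn5 and Egfl7, are markers of endothelial cells, the cells that line blood vessels. They were taken from the expression tables by gene name, 10 of 55487 genes, and all 10 were present once. The libraries were made from skin wounds punched through the full thickness of the back skin of male C57BL/6JNarl mice aged 6 weeks, 2 wounds per mouse. The sham group received Pluronic F127 gel alone, here called P-F127, and the CAP-treated group received 10 µM capsaicin in the same gel, 200 µl once a day. Wounds of both groups were sampled at day 3 and at day 6, with 3 libraries in each of the 4 groups. All mice were wounded and all wounds received gel and a dressing, so unwounded or gel-free skin is not part of these comparisons. Wounds were excised with the tissue around them.

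Blood vessels in a healing wound regrow from those at its edge. Vascular endothelial growth factor binds the receptors that Kdr and Flt1 encode and starts the sprouting of new vessels, while the angiopoietins act on the receptor encoded by Tek and govern how stable a vessel is. As a sprout becomes a vessel, its cells join through cadherin and claudin contacts, lay down a basement membrane and attract pericytes. The 10 genes cover these steps: contacts between cells (Pecam1, Cdh5, Cldn5), receptors for vascular growth factors (Kdr, Flt1), Tie receptors (Tek, Tie1), and surface or secreted proteins (Emcn, Vwf, Egfl7). In RNA from whole wounds, fewer endothelial cells and less RNA per endothelial cell cannot be told apart.

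The deposited values are TPM, which scales each gene by its length and each library to the same total, so levels can be compared between genes. TPM carries no read counts, the depth of the libraries is unknown, and the precision of every value rests on the spread between 3 libraries. The labels do not say whether libraries of a group came from separate mice. P-values then measure only the spread between these libraries, which may be technical in part. The libraries were alike in the number of genes at 0.3 TPM or more, 18533 to 19325, but CAP-treated day 6 replicate 2 stood apart. The epidermal keratins Krt1 and Krt10 made up 7.05% of its TPM, against 2.97% and 3.59% in the other CAP-treated day 6 libraries and 0.73% to 1.94% in the other 9. Its 10 most abundant genes held 14.1% of its TPM, against 8.27% to 11.3% elsewhere. Counts of genes past the threshold that rest on it are therefore given with and without it.

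All 10 genes were expressed in all 12 libraries, the lowest value being 2.25 TPM. Pecam1 was the most abundant of the 10 in every library, Cdh5 and Egfl7 took places 2 and 3, and Cldn5 took place 9 or 10. These 3 leading genes together made up 56.9% to 68.3% of the summed TPM of the 10 genes. The sum of the 10 was 131.0 to 165 TPM in the day 3 sham wounds and 119 to 187 TPM in the day 3 CAP-treated wounds. At day 6 it was 327 to 441 TPM in the sham wounds and 105 to 283 TPM in the CAP-treated wounds, the lowest of these being replicate 2. For each of the 10 genes the mean was highest in the day 6 sham wounds and next highest in the day 6 CAP-treated wounds. These neighbours in the order did not overlap for 7 genes and overlapped for Tek, Vwf and Egfl7. Below them the order could not be resolved for most genes: the day 6 CAP-treated wounds overlapped the next group for 9 genes, Tek being the exception, and the day 3 groups overlapped each other for 9 genes, Cldn5 being the exception.

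**Figure D1:**
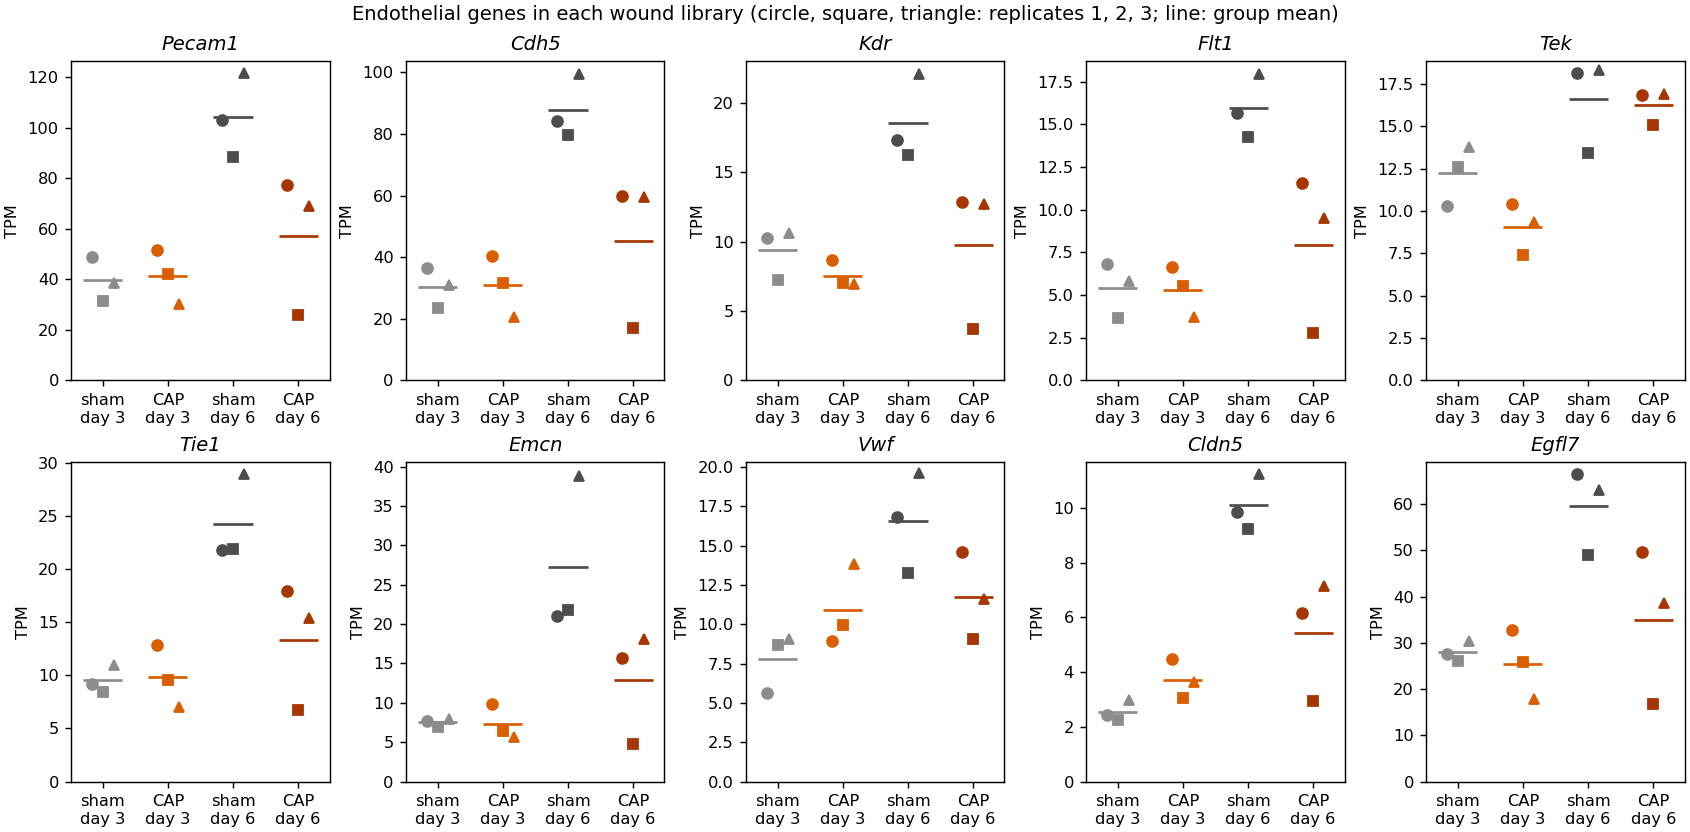
TPM of the 10 endothelial genes (vertical axes, linear, starting at 0) in the 12 wound libraries by group (horizontal axes), with 1 point per library, circles, squares and triangles for replicates 1, 2 and 3, and a line at the group mean. The day 6 sham libraries are highest for most genes, and CAP-treated day 6 replicate 2 (square) falls to the level of day 3 or under it for most genes, but not for Tek, at 15.1 TPM.

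Pecam1 (ENSMUSG00000020717, GRCm38 chromosome 11, 106654217 to 106750628, minus strand) encodes CD31, an adhesion molecule of endothelial cells that platelets and leukocytes also carry. Its level was 48.7, 31.5 and 38.6 TPM in the day 3 sham wounds and 51.7, 42.1 and 30.3 TPM in the day 3 CAP-treated wounds. At day 6 it was 103, 88.6 and 122 TPM in the sham wounds and 77.4, 25.7 and 68.9 TPM in the CAP-treated wounds. The day 3 groups overlapped, and at day 6 all 3 CAP-treated libraries lay under all 3 sham libraries. Cdh5 (ENSMUSG00000031871, chromosome 8, 104101625 to 104144511, plus strand) encodes VE-cadherin, the cadherin of endothelial adherens junctions. At day 3 its level was 36.5, 23.6 and 31.0 TPM in the sham wounds and 40.3, 31.7 and 20.7 TPM in the CAP-treated wounds. At day 6 it was 84.4, 79.8 and 99.6 TPM in the sham wounds and 59.8, 17.0 and 59.5 TPM in the CAP-treated wounds. Cdh5 thus had the same arrangement of libraries as Pecam1, with 2 CAP-treated day 6 libraries close together and replicate 2 far under them. Cldn5 (ENSMUSG00000041378, chromosome 16, 18776847 to 18778262, plus strand) encodes claudin-5, the tight junction protein of endothelium. In the day 3 wounds it stood at 2.42, 2.25 and 2.98 TPM in the sham group and 4.47, 3.06 and 3.64 TPM in the CAP-treated group. By day 6 it stood at 9.85, 9.25 and 11.2 TPM in the sham group and 6.16, 2.93 and 7.15 TPM in the CAP-treated group. Cldn5 was the least abundant of these junction genes, and its groups were apart at both days, with CAP-treated wounds above sham wounds at day 3 and under them at day 6.

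Kdr (ENSMUSG00000062960, chromosome 5, 75932827 to 75978458, minus strand) encodes VEGFR2, the main signalling receptor for vascular endothelial growth factor A. The day 3 values of Kdr were 10.3, 7.27 and 10.6 TPM for sham and 8.70, 6.99 and 6.92 TPM for CAP. In the day 6 wounds the values were 17.3, 16.2 and 22.1 TPM for sham and 12.9, 3.71 and 12.7 TPM for CAP, so the day 6 groups did not overlap. Flt1 (ENSMUSG00000029648, chromosome 5, 147561604 to 147726011, minus strand) encodes VEGFR1, which binds the same growth factor tightly and also exists as a soluble decoy. Sham wounds held 6.80, 3.67 and 5.85 TPM at day 3 and 15.7, 14.3 and 17.9 TPM at day 6. CAP-treated wounds held 6.63, 5.56 and 3.71 TPM at day 3 and 11.6, 2.78 and 9.53 TPM at day 6. Flt1 overlapped between treatments at day 3 and not at day 6, as Kdr did. Both receptors were at their lowest in CAP-treated day 6 replicate 2, at 29.0% of the mean of replicates 1 and 3 for Kdr and 26.4% for Flt1.

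Tek (ENSMUSG00000006386, chromosome 4, 94739289 to 94874976, plus strand) encodes TIE2, the receptor for angiopoietins, and was the member whose values differed least between libraries. The day 3 sham wounds had 10.3, 12.6 and 13.8 TPM and the day 3 CAP-treated wounds 10.4, 7.39 and 9.38 TPM. The day 6 sham wounds had 18.2, 13.4 and 18.3 TPM and the day 6 CAP-treated wounds 16.8, 15.1 and 16.9 TPM, so that at day 6 the groups overlapped fully and replicate 2 was not low. Tie1 (ENSMUSG00000033191, chromosome 4, 118471191 to 118490061, minus strand) encodes the related receptor TIE1, which forms complexes with TIE2. Among day 3 wounds, those given gel alone had 9.17, 8.42 and 11.0 TPM of Tie1 and those given CAP had 12.9, 9.59 and 7.06 TPM. The corresponding day 6 values were 21.9, 21.9 and 29.0 TPM and 17.9, 6.74 and 15.4 TPM. Tie1 kept apart at day 6 with every CAP-treated library lower, whereas the values of its partner Tek were mixed between the groups.

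Emcn (ENSMUSG00000054690, chromosome 3, 137341067 to 137432185, plus strand) encodes endomucin, a sialomucin on the surface of capillaries and veins. Its values at day 3 were 7.74, 6.90 and 7.90 TPM in the sham group and 9.89, 6.45 and 5.61 TPM in the CAP-treated group. Its values at day 6 were 21.1, 21.8 and 38.9 TPM in the sham group and 15.8, 4.77 and 18.1 TPM in the CAP-treated group. Sham replicate 3 was well above the other day 6 sham libraries for Emcn, and the day 6 groups did not overlap. Vwf (ENSMUSG00000001930, chromosome 6, 125546774 to 125686679, plus strand) encodes von Willebrand factor, the clotting protein that endothelial cells store and that platelets also carry. Sham wounds gave 5.64, 8.68 and 9.06 TPM at day 3 and 16.8, 13.3 and 19.6 TPM at day 6. CAP-treated wounds gave 8.96, 9.98 and 13.9 TPM at day 3 and 14.6, 9.05 and 11.6 TPM at day 6. For Vwf the CAP-treated wounds were alike at both days and overlapped the sham wounds at each. Egfl7 (ENSMUSG00000026921, chromosome 2, 26580014 to 26593120, plus strand) encodes a secreted protein that endothelial cells lay down along the vessel. In the sham wounds it measured 27.6, 26.1 and 30.5 TPM at day 3 and 66.6, 48.9 and 63.1 TPM at day 6. In the CAP-treated wounds it measured 32.7, 25.9 and 17.8 TPM at day 3 and 49.6, 16.8 and 38.6 TPM at day 6. The highest CAP-treated day 6 library passed the lowest sham library for Egfl7 by under 1 TPM. Egfl7 hosts the miRNA gene Mir126a, listed at 0.016 TPM or less, and overlaps Gm20532 on its own strand (at most 0.0572 TPM) and Agpat2 on the other strand (19.3 to 34.1 TPM) over 1.8% of its exon bases. Whether the counting used strand is not stated, and reads in that short stretch cannot be assigned. Cdh5 overlaps the antisense gene Gm29682, listed at 0.0001 TPM in all libraries, in no exon base. The other 8 genes overlap no annotated gene, and the share of 31-base stretches found in transcripts of other genes was at most 2.5% for 9 genes and 7.52% for Egfl7, most of it with Gm20532.

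Promoter sequence from RefSeq on GRCm38.p6, 250 bases before to 50 bases after the start of the gene, was matched for 7 of the 10 genes, with 9 promoters in all since Egfl7 has 3. ETS factors such as ERG and FLI1 drive many endothelial genes through a GGAA core, so the letters AGGAAG and CGGAAG were searched on both strands. Either was present in 5 of the 9 promoters, those of Flt1, Tie1 and Emcn and 2 of Egfl7, and in 46.5% of all 32851 promoters of that length. By itself AGGAAG was in 35.4% of all promoters and CGGAAG in 16.9%. The GATA letters AGATAA were in 1 of the 9 (Tek) and in 11.2% of all promoters. The SOX letters ACAATG and the E box CACGTG, a comparison motif, were in 0 of the 9 and in 12.6% and 7.2% of all promoters. The promoters of Flt1 and Tie1, which followed the other members, and of Tek, which did so least, are shown 5′ to 3′ along the gene. Capitals mark the ETS letters (read on either strand, as CTTCCT on the other) in Flt1 and Tie1 and the GATA letters in Tek.
Flt1, chr5:147725962-147726261, minus strand: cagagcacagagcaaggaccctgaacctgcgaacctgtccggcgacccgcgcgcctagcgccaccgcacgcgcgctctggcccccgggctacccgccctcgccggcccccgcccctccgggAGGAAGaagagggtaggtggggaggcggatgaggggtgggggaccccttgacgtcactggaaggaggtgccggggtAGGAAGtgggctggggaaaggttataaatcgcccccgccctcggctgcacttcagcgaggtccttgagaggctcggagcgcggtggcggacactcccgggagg
Tie1, chr4:118489800-118490099, minus strand: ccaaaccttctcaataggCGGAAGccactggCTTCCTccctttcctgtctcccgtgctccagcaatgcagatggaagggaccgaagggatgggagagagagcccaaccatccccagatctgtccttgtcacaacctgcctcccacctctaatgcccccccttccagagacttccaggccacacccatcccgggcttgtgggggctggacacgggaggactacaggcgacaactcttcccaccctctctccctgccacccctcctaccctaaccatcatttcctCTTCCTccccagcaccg
Tek, chr4:94739039-94739338, plus strand: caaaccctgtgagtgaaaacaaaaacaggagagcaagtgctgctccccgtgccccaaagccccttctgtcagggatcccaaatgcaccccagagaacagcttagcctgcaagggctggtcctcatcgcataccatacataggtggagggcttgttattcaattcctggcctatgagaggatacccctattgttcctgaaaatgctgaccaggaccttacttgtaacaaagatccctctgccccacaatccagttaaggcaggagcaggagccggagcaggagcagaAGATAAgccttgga
The Flt1 window holds the ETS letters at positions -129 and -53 from the start of the gene in RefSeq, and the Tie1 window holds them at -232, -219 and 34. In the Tek window they do not occur, and the GATA letters lie at position 37. The promoters of Kdr and Cldn5 hold no ETS letters either, though these genes moved with the others about as closely as Flt1 did. Their root mean square differences from the other genes, described below, were 0.256 and 0.311, against 0.272 for Flt1. These matches describe letters in a window and no binding of a factor was measured.

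Between day 3 and day 6, endothelial genes rose in the sham wounds. At an unadjusted P-value under 0.05 from limma with a difference of at least 2-fold, the threshold of the study, 8 of the 10 genes were higher at day 6, against 2.13% of the 18368 genes tested. Emcn rose by 1.79 on the log2 scale of TPM + 0.1 (SE 0.23, adjusted P=0.0186 from limma) and Cldn5 by 1.95 (SE 0.16, adjusted P=0.00985 from limma). The receptor Flt1 rose by 1.58 (SE 0.23, adjusted P=0.0247 from limma) and the cadherin Cdh5 by 1.55 (SE 0.17, adjusted P=0.0146 from limma). Pecam1 followed at 1.41, Tie1 at 1.33, Vwf at 1.09 and Egfl7 at 1.07. Kdr, at 0.98 (SE 0.19, adjusted P=0.0476 from limma), was just short of 2-fold. Tek had the smallest difference, 0.44 (SE 0.17, unadjusted P=0.0344 and adjusted P=0.26 from limma).

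All 10 genes were higher at day 6 with an unadjusted P-value under 0.05 from limma, against 8.05% of all genes, with a median log2 difference of 1.37, while the median over all genes tested was 0.00. In 9 of the 10 genes every day 6 sham library exceeded every day 3 sham library, which 10.8% of all genes tested did. The exact permutation test of 3 libraries against 3 gave these 9 genes its smallest possible P-value, 0.1, and Tek 0.2. After Benjamini-Hochberg adjustment over all genes, limma left 8 of the 10 genes higher, against 1.14% of all genes, Vwf (adjusted P=0.0573 from limma) and Tek being the others. This adjusted count was 0 when all 12 libraries were fitted together and 4 without the expression filter. It was also 0 without day 3 sham replicate 3, and 7, 4, 5, 6 and 4 without day 3 replicates 1 and 2 and day 6 replicates 1, 2 and 3. The count at the unadjusted threshold remained between 7 and 9 in all of these. For these other fits the share of all genes is not given, so neither count can be set against it.

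In the CAP-treated wounds the same interval gave smaller differences for 9 of the 10 genes, Tek being the exception, and their standard errors were 0.24 to 0.54. Of the 10 genes 0 passed the threshold by limma, against 2.79% of 18202 genes in either direction and 1.27% higher. An unadjusted P-value under 0.05 was reached by 1 of the 10, against 5.66% of all genes higher, and an adjusted one by 0 of the 10 and 0.00% of all genes. That gene was Tek, which was higher at day 6 by 0.85 on the log2 scale (SE 0.16, unadjusted P=0.00119 and adjusted P=0.289 from limma) and did not overlap between the days, as did 8.05% of all genes in that direction. The other 9 were higher in the mean by 0.10 (Vwf) to 0.64 (Emcn), with 95% confidence intervals that all included 0, such as −0.68 to 1.38 for Pecam1. Over the 10 genes the median was 0.38, against −0.05 for all genes. Without CAP-treated day 6 replicate 2 the median was 0.84 and 2 passed the threshold, Flt1 at 1.01 and Emcn at 1.24, against 233 of 18220 genes higher. In that fit 9 of the 10 were higher with an unadjusted P-value under 0.05 from limma, against 5.19% of all genes. Vwf was then the gene that did not pass that P-value, at 0.27.

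At day 3 the levels of the 10 genes in CAP-treated and sham wounds could not be told apart for most of them. None passed the threshold by limma, against 1.58% of 18330 genes in either direction, and the median log2 difference of the 10 was −0.02, against −0.05 for all genes. Cldn5 had the only groups that did not overlap: it was higher in the CAP-treated wounds by 0.52 (SE 0.21, unadjusted P=0.0419 and adjusted P=0.734 from limma), where 1.46% of all genes were higher at such a P-value and 2.86% were higher without overlap. Tek was lower by 0.43 (SE 0.17, unadjusted P=0.044 and adjusted P=0.741 from limma), where 5.14% of all genes were lower at such a P-value, and its groups overlapped. Vwf differed by 0.49, with a 95% confidence interval of −0.08 to 1.06. The confidence intervals of Pecam1, Cdh5, Flt1, Tie1 and Emcn, whose differences lay between −0.08 and 0.05, lay within −0.74 and 0.68. Median-ratio scaling turned Cdh5 to 0.05 and Flt1 to 0.03, and without single libraries the median ranged from −0.22 to 0.22, so no direction can be given for these.

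Of the 10 genes at day 6, 4 were lower with CAP than with gel alone past the threshold and 0 after adjustment, and whether they passed depended on single libraries. Pecam1 fell by 1.004 on the log2 scale (SE 0.40, unadjusted P=0.041 and adjusted P=0.246 from limma), Cdh5 by 1.15 (SE 0.47, unadjusted P=0.043 and adjusted P=0.249 from limma), Flt1 by 1.22 (SE 0.50, unadjusted P=0.0433 and adjusted P=0.249 from limma) and Emcn by 1.23 (SE 0.51, unadjusted P=0.0486 and adjusted P=0.258 from limma). These were the 4 genes past the threshold, against 2.34% of 18323 genes lower. Tie1 (−0.96) and Cldn5 (−0.98) had an unadjusted P-value under 0.05 from limma but were short of 2-fold, which made 6 of 10 lower at that P-value, against 12.5% of all genes. Kdr (−1.11), Egfl7 (−0.89) and Vwf (−0.50) had 95% confidence intervals that reached 0.001, 0.0073 and 0.0182. Tek differed by −0.02 in the deposited scaling, with an interval of −0.38 to 0.35, and by 0.09 after median-ratio scaling.

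Limma left 0 of the 10 genes and 0.00% of all genes lower at day 6 after adjustment over all genes. In 7 of the 10 every CAP-treated library lay under every sham library, which 18.0% of all genes tested did, and the exact permutation P-value of each of the 7 was 0.1, the smallest that 3 libraries against 3 allow. The median of the 10 was −0.99, against −0.12 for all genes; after median-ratio scaling these were −0.88 and −0.02. Without CAP-treated replicate 2, which had under 45% of the mean of the other CAP-treated libraries in 8 of the 10 genes, 0 of the 10 passed the threshold and the median was −0.52, while 6 of the 10 had an unadjusted P-value under 0.05 from limma. Over all genes in that fit, 0.931% were lower past the threshold and 7.81% were lower at that P-value. Among these, Cdh5 was at −0.55 (unadjusted P=0.0037 from limma), Cldn5 at −0.59 (unadjusted P=0.00888 from limma) and Flt1 at −0.59 (unadjusted P=0.00897 from limma). The count past the threshold was 8 without CAP-treated replicate 1, 7 without CAP-treated replicate 3, and 0, 1 and 0 without sham replicates 1, 2 and 3. It was 0 without the expression filter and 2 with median-ratio scaling. For these fits the share of all genes past the threshold is not given, so the counts cannot be set against it.

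**Figure D2:**
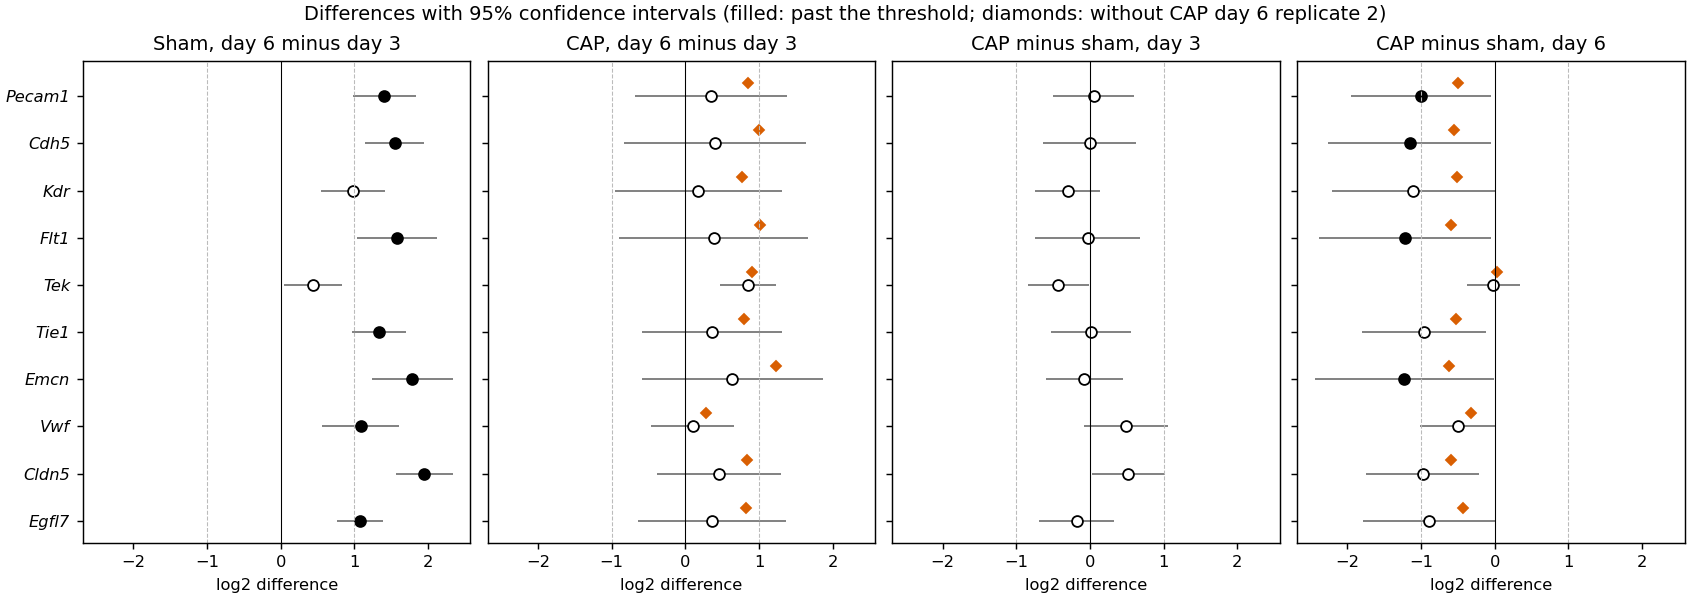
Log2 differences of TPM + 0.1 (horizontal axes) of the 10 genes in 4 comparisons, with 95% confidence intervals from limma. Filled points passed the threshold (8 genes in sham wounds over time, 4 at day 6), dashed lines mark 2-fold, and diamonds give the value without CAP-treated day 6 replicate 2. Leaving it out brought 9 of the 10 differences between treatments at day 6 closer to 0 and moved Tek from −0.02 to 0.03. Over time in CAP-treated wounds it moved the median away from 0, from 0.38 to 0.84.

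The effect of CAP at day 6 was set against its effect at day 3 in a fit of all 12 libraries. Cldn5 was the 1 gene of the 10 past the threshold: its CAP effect at day 6 was lower than that at day 3 by 1.50 on the log2 scale (SE 0.41, unadjusted P=0.00366 and adjusted P=0.428 from limma), where 2.73% of the 20267 genes tested were lower past the threshold. Leaving out CAP-treated day 6 replicate 2 gave −1.12 (unadjusted P=0.00171 from limma), and over all alternatives the value lay between −1.75 and −1.12. Vwf had a difference of −0.99 (unadjusted P=0.0159 from limma), which made 2 of 10 lower at such a P-value, against 5.88% of all genes, and Tek, alone among the 10, a positive one, 0.41 (unadjusted P=0.111 from limma). The median of the 10 was −1.02, against −0.06 for all genes, and −0.55 without CAP-treated day 6 replicate 2. The number past the threshold was 7 without CAP-treated day 6 replicate 1, 5 without CAP-treated day 6 replicate 3, 4 without CAP-treated day 3 replicate 3, 2 without CAP-treated day 3 replicates 1 or 2, sham day 3 replicates 2 or 3 or sham day 6 replicate 2, and 1 otherwise. Without CAP-treated day 6 replicate 2, 1.42% of all genes were lower past the threshold. For the other fits the share of all genes is not given, so their counts cannot be set against it. These comparisons of CAP effects share libraries with those at each day, so they are not a further source of evidence.

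How far the 10 genes moved together was described by the level of each gene in a library minus the mean of the other 9, each gene first centred on its own mean over the 12 libraries. Tie1 stayed closest to the others, with a root mean square difference of 0.104 on the log2 scale, followed by Pecam1 (0.149) and Egfl7 (0.179). Cdh5, Kdr, Flt1, Cldn5 and Emcn lay between 0.23 and 0.318. Vwf (0.487) and Tek (0.54) departed most. Tek was 0.43, 0.71 and 0.71 under the other genes in the day 6 sham libraries and 1.23 above them in CAP-treated day 6 replicate 2, where it had 89.3% of the mean of replicates 1 and 3. Vwf was 0.67 above the others in that library and 1.08 above them in CAP-treated day 3 replicate 3. Cldn5 was under the other genes in the 3 day 3 sham libraries, by 0.38 to 0.59, and above them in the 3 day 6 sham libraries, by 0.14 to 0.32. The 12 points of each gene share their libraries, and these values are a description.

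**Figure D3:**
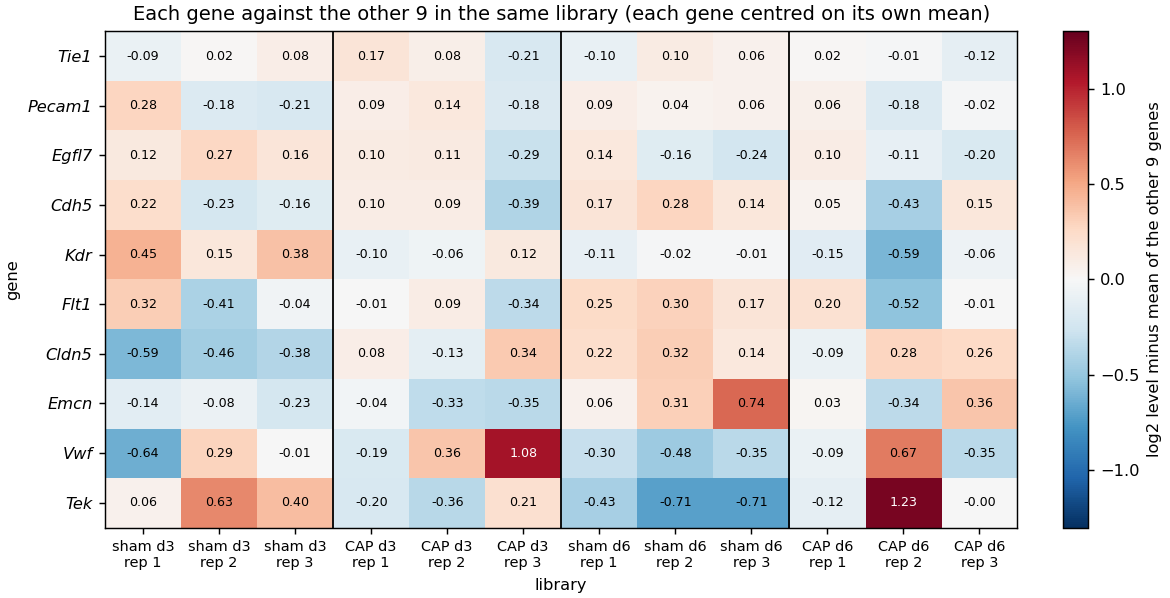
Each of the 10 genes (rows, ordered from the gene closest to the others to the one farthest from them) in each of the 12 libraries (columns, sham or CAP, day and replicate), as its centred log2 level minus the mean of the other 9 genes. Tie1 and Pecam1 stay near 0, and Tek reaches 1.23 and Vwf 0.67 in CAP-treated day 6 replicate 2.

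Of the 16159 other genes averaging 1 TPM or more over the libraries, those whose centred profile over the 12 libraries came closest to the mean profile of the 10 genes were Col4a2, Col15a1, Plvap, Esam, Gucy1b1, Robo4, Erg, Adgrl4, Adgrf5 and Rgs5, with root mean square differences of 0.101 to 0.150 on the log2 scale, where the median gene had 0.663. Col4a2 and Col15a1 encode basement membrane collagens, Plvap, Esam and Robo4 endothelial surface proteins, Erg an endothelial transcription factor, and Rgs5 a regulator known as a pericyte marker. Col4a2 measured 118, 93.2 and 116 TPM in the day 3 sham wounds and 137, 126 and 94.1 TPM in the day 3 CAP-treated wounds. In the day 6 wounds it measured 272, 225 and 314 TPM for sham and 202, 69.7 and 199.9 TPM for CAP. The order of the libraries was that of Pecam1 in outline, with the day 6 sham wounds highest and CAP-treated day 6 replicate 2 lowest. Col4a2 was chosen for a profile near that of the 10 genes, so this likeness is no further evidence.

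Other genes of the endothelium were followed through 4 lists, of receptors and signalling, transcription factors, junction and surface proteins, and capillary, arterial and venous genes, 65 genes in all with 64 tested. In the sham wounds between day 3 and day 6, 25 were higher past the threshold and 0 lower, against 2.13% higher and 1.61% lower of all genes, with a median of 0.84 on the log2 scale, against 0.00. Not all rose: 56 differences were positive and 8 negative, the lowest at −0.85. At an unadjusted P-value under 0.05 from limma 43 were higher and 4 lower, against 1478 and 1452 of all 18368 genes. Of these lists, the receptors had 10 of 18 higher, among them Aplnr (1.72), Notch4 (1.62) and Nos3 (1.22). Transcription factors had 6 of 16, among them Sox17 (1.47), Sox18 (1.23) and Erg (1.31), and Etv2, a factor of the embryonic endothelium, was listed at 0.0001 TPM throughout. Junction and surface genes had 5 of 17, among them Mmrn2 (1.23), Plvap (1.36) and Esam (1.50), and the vessel type list had 4 of 13, among them Gpihbp1 (1.91), Gja4 (1.52) and Sema3g (1.16).

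Comparing CAP-treated with sham wounds at day 6, 13 of the 64 were lower past the threshold and 0 higher, against 2.34% lower and 1.46% higher of all genes, with a median of −0.76, against −0.12. These were 2 receptors, 3 transcription factors, 7 junction and surface genes, among them Icam1 (−1.08), Selp (−1.11) and Ecscr (−1.11), and 1 vessel type gene, Gpihbp1 (−1.29). Icam1 and Selp encode adhesion molecules that leukocytes bind. Without CAP-treated day 6 replicate 2, 0 of the 64 passed the threshold by limma, 23 were lower at an unadjusted P-value under 0.05, against 7.81% of all genes, and the median was −0.44. Icam1 was then at −0.84, Selp at −0.83, Ecscr at −0.71 and Gpihbp1 at −0.68.

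In the day 3 comparison 0 of the 64 passed in either direction by limma. An unadjusted P-value under 0.05 was found for 2 higher and 4 lower, against 1.46% higher and 5.14% lower of all genes. Between the days in the CAP-treated wounds 0 were higher and 1, Car4 (−2.59), lower, against 1.27% higher and 1.52% lower of all genes. Without CAP-treated day 6 replicate 2 this turned to 5 higher and 0 lower, against 1.28% and 0.818%, with Car4 at −1.54 and no longer past the threshold. For the difference between the CAP effects 0 were higher and 12 lower, against 2.73% lower of all genes, and without that library 1 was lower, against 1.42%.

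Secreted and membrane-bound vascular factors were tested as a list of 12, most of them ligands of the receptors above or of apelin and Notch receptors, with Angptl4 and Pdgfb beside them. Vegfa, the main ligand of VEGFR2, was at 167, 96.4 and 90.4 TPM in the day 3 sham wounds, 101, 149.9 and 144 TPM in the day 3 CAP-treated wounds, 230, 243 and 164 TPM in the day 6 sham wounds and 80.5, 57.0 and 146 TPM in the day 6 CAP-treated wounds. The day 6 groups did not overlap, and Vegfa was lower in the CAP-treated wounds by 1.26 on the log2 scale (unadjusted P=0.00733 and adjusted P=0.209 from limma). Without CAP-treated day 6 replicate 2 its difference was −0.95, short of 2-fold. Together with Vegfc (−1.14), Pgf (−2.45), Angptl4 (−1.38) and Apln (−2.13) it was 1 of 5 factors of 12 lower past the threshold, against 2.34% of all genes. Without that library 2 of the 12 were lower, against 0.931% of all genes, namely Pgf at −1.43 and Apln at −1.16, with Vegfc at −0.90 and Angptl4 at −0.88. Over time in the sham wounds 4 factors of 12 were higher, against 2.13% of all genes, Pgf (1.54), Angpt2 (1.50), Apln (1.30) and Dll4 (1.73). Angpt2, which loosens vessels for sprouting, held 6.74, 4.95 and 4.75 TPM in the day 3 sham wounds and 13.7, 13.7 and 19.7 TPM in the day 6 sham wounds. The other ligand of TIE2, Angpt1, differed by 0.10 on the log2 scale in that interval, with a 95% confidence interval of −0.27 to 0.47. Apln, Angpt2, Dll4 and Pdgfb also stand on the list of tip cells, the leading cells of sprouts, of which 6 of 9 were higher in the sham wounds at day 6 than at day 3 and 1 of 9, Apln, lower under CAP at day 6, against the same 2.13% and 2.34%.

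Markers of other cells moved in the same libraries. Over all genes, 2.13% were higher and 1.61% lower past the threshold over time in the sham wounds, and 1.46% were higher and 2.34% lower with CAP at day 6. Of the pericyte and smooth muscle list, 6 of 10 genes were higher in the sham wounds at day 6 than at day 3, among them Rgs5 (1.45), Tagln (1.47) and Pdgfrb (1.07), and 2 of 10, Acta2 (−1.53) and Tagln (−1.32), were lower with CAP at day 6. This list did not move as 1 with CAP at day 6: 8 differences were negative and 2 positive, the highest at 0.63. The lymphatic list had 2 of 5 higher over time in the sham wounds, Flt4 (1.80) and Mmrn1 (1.07), and its defining gene Prox1 was at 0.19 to 0.56 TPM. Of the keratinocyte list, 1 of 8 was lower in the sham wounds over time and 2 of 8, Krt1 (1.86) and Krt10 (1.62), were higher in the CAP-treated wounds at day 6. The summed level of the 8 keratinocyte genes was 30320 to 36790 TPM in the day 6 sham wounds and 47000 to 97430 TPM in the day 6 CAP-treated wounds, with 0 of the 8 genes under 0.3 TPM throughout. TPM values are shares of a fixed total, and the part of the keratinocyte RNA in the endothelial differences was not tested. Without CAP-treated day 6 replicate 2, Krt1 (1.51) and Krt10 (1.24) were past the threshold, against 0.762% of all genes higher. Of the 10 pericyte genes 0 were then lower past the threshold by limma, with an unadjusted P-value under 0.05 for 3, Acta2 being at −0.89 and Tagln at −0.91.

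Among the remaining lists, fibroblast genes had 0 of 7 past the threshold by limma in each comparison. With CAP, 4 were lower at day 3 and 1 at day 6 at an unadjusted P-value under 0.05, against 5.14% and 12.5% of all genes. Between the days, 2 were higher at that P-value in the sham wounds and 4 in the CAP-treated wounds, against 8.05% and 5.66% of all genes. Without CAP-treated day 6 replicate 2 the 4 became 3, against 5.19%. Monocyte and macrophage genes had 2 of 11 lower with CAP at day 3, Ccr2 (−1.33) and Cx3cr1 (−1.17), against 1.16% of all genes, and 2 of 11 lower at day 6, Itgam and Ccr2 (both −1.04), and adipocyte genes 1 of 8 higher, Lep (1.46). Without CAP-treated day 6 replicate 2 these day 6 counts were 0 and 3. The day 3 differences of the 11 monocyte and macrophage genes were mixed, 6 negative and 5 positive. They ran from −1.33 to 0.64, with a median of −0.05, against −0.05 for all genes. Over time in the CAP-treated wounds, 1 of 11 monocyte and macrophage genes was higher and 2 lower, against 1.27% and 1.52% of all genes. Without that replicate this was 0 higher and 1 lower, against 1.28% and 0.818%. Of the platelet list, 5 of 12 genes were tested in sham wounds over time, where Ppbp (−3.02) was lower and Treml1 (1.76) higher. With CAP, Ppbp (1.19) and Treml1 (1.24) were higher at day 3, against 0.426% of all genes, and Ppbp (−1.15) was lower at day 6, at −1.32 without replicate 2. Over time in the CAP-treated wounds, 2 of 6 platelet genes tested were lower, against 1.52% of all genes. Without replicate 2 it was again 2, against 0.818%. The part of platelet RNA in the values of Pecam1 and Vwf was not tested. Erythroid genes, mostly of haemoglobin, had 5 of 5 higher at day 6 than at day 3 in the sham wounds, 5 of 5 higher in the CAP-treated wounds at day 3 and 0 of 5 past the threshold between treatments at day 6. Their summed level was 2114 to 5623 TPM in the day 6 sham wounds and 514 to 753 TPM in the day 3 sham wounds, and the part of blood in the endothelial values was not tested. Skeletal muscle genes had 2 of 9 lower in the sham wounds at day 6 than at day 3, against 1.61% of all genes. In the CAP-treated wounds 2 of 9 were lower over that interval, against 1.52%. With CAP at day 6, 1 of 9 was lower than in the sham wounds, against 2.34%. Without CAP-treated day 6 replicate 2, 1 of 9 was lower in each of these CAP comparisons, against 0.818% over time and 0.931% at day 6.

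**Figure D4:**
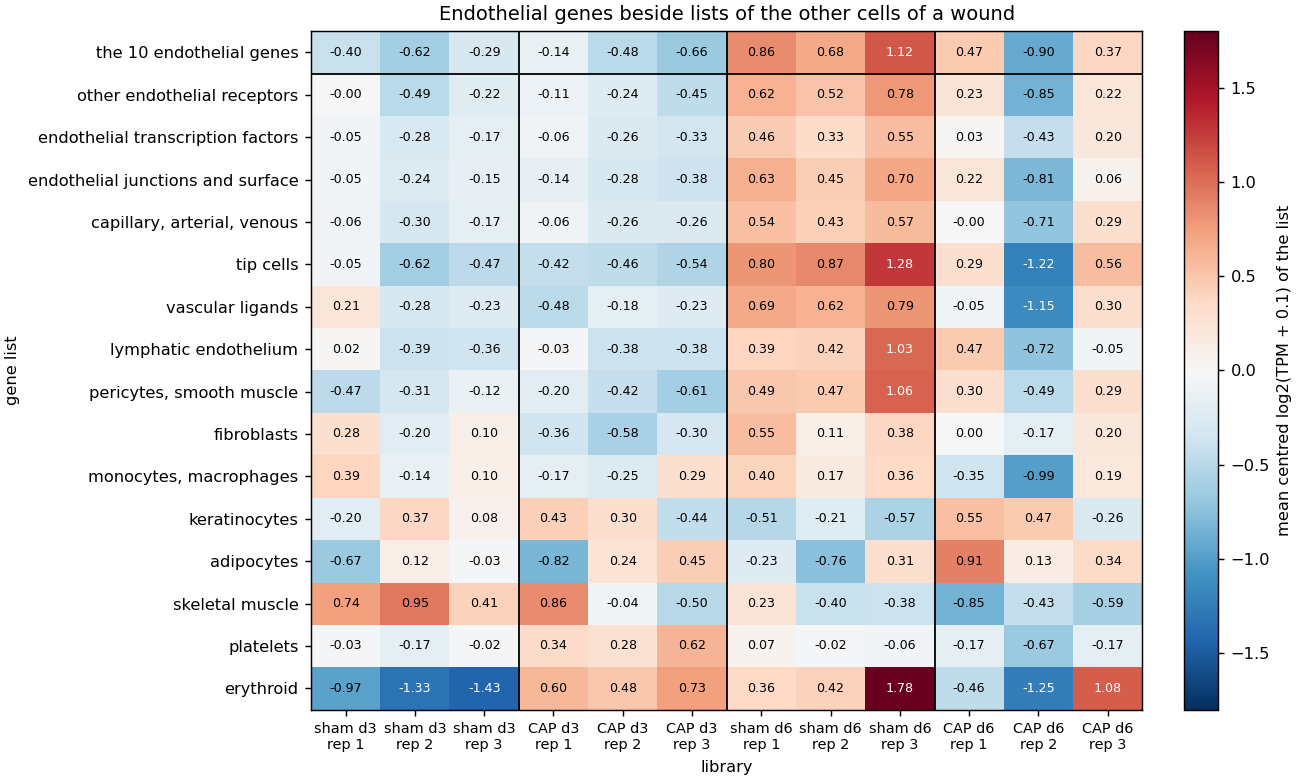
Mean centred log2(TPM + 0.1) of the 10 endothelial genes (top row) and of 15 lists of other vascular and wound cells (rows) in the 12 libraries (columns, sham or CAP, day and replicate). The other endothelial lists, the ligands and the pericyte list share the high values of the day 6 sham libraries and the low values of CAP-treated day 6 replicate 2 (−0.90 for the 10 genes), and keratinocyte genes run the other way in these (0.47 in replicate 2). Monocyte (−0.995), platelet (−0.669) and erythroid (−1.25) lists are low in replicate 2 as well. In CAP-treated day 6 replicate 1 keratinocyte genes (0.548) and the 10 genes (0.468) are both high.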

How the data were processed

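Total RNA from excised wounds and surrounding skin was sequenced as paired-end mRNA libraries (SureSelect XT HS2), 12 in all. Per the labels, reads were handled with bcl2fastq and Trimmomatic 0.36 on mm10, and the authors deposited StringTie TPM values per gene. The aligner, annotation release, strand setting and depth are not stated in the labels or methods used here. A value of 0.0001 TPM stands for 0, and 0 other columns of per-sample values were left out. Differences were tested on log2(TPM + 0.1) with limma 3.58.1 (trend) in R 4.3.3, for genes that averaged 0.3 TPM or more in each group compared (in 1 or more groups for the difference between CAP effects). The threshold was that of the study, and adjustment was by Benjamini-Hochberg over all genes tested. The study names DEseq or DEseq2 as its test, so its calls and those made here with limma are not a like measure. The scripts were tested on simulated data: in the sham comparison over time, 51% of genes changed 2-fold and 97.9% of those changed 4-fold were called, among 16183 genes. Between treatments at day 6 these were 45% and 95.7%, among 16205 genes. A 2-fold change lies on the fold threshold itself, so the share called there does not measure power. Gene positions are those of the deposited tables, and all 10 genes had identical coordinates in GENCODE M21. Genes and lists were chosen with earlier results of these data known. Beside the 10 genes, the text names up to 3 genes per list and comparison by smallest P-value, and the 10 genes most alike in profile. Dll4, Angpt1, Pdgfb, Prox1 and Etv2, and Pgf and Apln at day 6, were named after their values were seen. Leaving CAP-treated day 6 replicate 2 out of the list counts was chosen after seeing the data.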

Additional observations from a re-analysis of the deposited data

Results flagged for a closer look

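Cldn5 was singled out because the effect of CAP on it differed between the days when that difference itself was tested. Claudin-5 transcripts were higher in CAP-treated than in sham wounds at day 3, by 0.52 on the log2 scale, and lower at day 6, by 0.98, which makes a difference of −1.50 (SE 0.41, unadjusted P=0.00366 and adjusted P=0.428 from limma with all 12 libraries). It does not pass adjustment over all genes. Cldn5 was the 1 of the 10 past the threshold, against 2.73% of all genes lower. The direction was not particular to Cldn5: 9 of the 10 genes had a negative difference, with a median of −1.02. At day 3 all 3 CAP-treated libraries were above all 3 sham libraries, and at day 6 all 3 were under them.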

How the results depend on the processing

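Depth is unknown, so the limits are those of 3 libraries per group. The rise of the endothelial genes in sham wounds gave 8 genes past the threshold with other pseudocounts, without the filter, in a joint fit, with either rescaling and with robust estimation, and 7 to 9 when single libraries were left out. The lower levels under CAP at day 6 did not hold their count: the 4 genes past the threshold became 0 without the expression filter, 2 with median-ratio scaling, 2 with quantile normalization (chosen after seeing the data) and 0 to 8 when single libraries were left out, while the median stayed between −1.26 and −0.52. The cause was not tested. For fits without single libraries, shares of all genes past the threshold are given only for CAP-treated day 6 replicate 2. The count over time in CAP-treated wounds was 0 to 2 and that of the difference between CAP effects 1 to 7 when single libraries were left out, and the medians ranged from −0.22 to 0.22 at day 3 and from −1.29 to −0.55 for the difference between CAP effects. Replicate numbers are shared between groups but did not pair the libraries: the correlation of same-numbered deviations was −0.17 to 0.29. With a replicate block, the count of the difference between CAP effects was 2, that at day 6 was 5, and the other 3 counts did not change. Directions turned at day 3 with median-ratio scaling for Cdh5 (0.052) and Flt1 (0.026), with quantile normalization for Cdh5 (0.046), Flt1 (0.094) and Emcn (0.021), and at day 6 for Tek with median-ratio scaling (0.090) and quantile normalization (0.11). When single libraries were left out, directions at day 3 turned for Cdh5 (−0.22 to 0.26), Egfl7 (−0.38 to 0.054), Emcn (−0.31 to 0.090), Flt1 (−0.29 to 0.20), Pecam1 (−0.13 to 0.26) and Tie1 (−0.20 to 0.23). They also turned for Tek at day 6 (−0.17 to 0.058), and over time in CAP-treated wounds for Kdr (−0.12 to 0.76) and Vwf (−0.069 to 0.28). Over all genes, leaving out the filter moved the count past the threshold from 290 to 568 at day 3, from 688 to 1156 over time in sham wounds and from 507 to 842 over time in CAP-treated wounds. A pseudocount of 1 TPM moved these to 154, 405 and 299, that at day 6 from 697 to 385 and that of the difference between CAP effects from 994 to 580.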
